A study of Mus musculus with 179 samples.

Results

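The genes described here make, store and recapture dopamine, or are known to mark the neurons that do. They are Th, Ddc, Slc6a3, Slc18a2, Gch1 and Aldh1a1. They were chosen by symbol, from the known steps of dopamine handling and not from a measured value, and matched by Ensembl identifier. Earlier results of these data were known when they were chosen. All 6 were among the 37810 genes of the male ventral tegmental area table and the 32421 genes of the table of the other libraries, and 5 were among the 16239 genes of the male nucleus accumbens table, where Th was not analysed here.

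Dopamine is made in a short chain of steps. Tyrosine hydroxylase (Th) turns tyrosine into L-DOPA and is the rate-limiting enzyme, GTP cyclohydrolase (Gch1) starts the synthesis of its cofactor tetrahydrobiopterin, and aromatic amino acid decarboxylase (Ddc) turns L-DOPA into dopamine. The vesicular monoamine transporter (Slc18a2) loads dopamine into vesicles, the dopamine transporter (Slc6a3) takes it back up from outside the cell, and the aldehyde dehydrogenase Aldh1a1 oxidises a breakdown product of dopamine in a subset of midbrain dopamine neurons. Ddc, Slc18a2 and Gch1 also serve serotonin neurons, and Th, Ddc, Gch1 and Slc18a2 also serve noradrenaline neurons, so only Slc6a3 is close to specific for dopamine cells.

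Poly-A RNA was measured in 163 libraries of punched brain tissue from adult C57BL/6 mice, taken 24 h after behavioural testing. The study asked how stress in early life changes the response to a second stress in adulthood. Mice were reared normally (standard) or had early life stress (ELS) on postnatal days 10 to 20, in male nucleus accumbens also on days 2 to 12 (the late and the early window), and the labels of the male ventral tegmental area give no window. As adults, males then stayed undisturbed (control) or went through chronic social defeat, and females stayed undisturbed or went through sub-threshold variable stress (STVS). The labels name no transgene or drug in any group. The ventral tegmental area (VTA) holds midbrain dopamine cell bodies, the nucleus accumbens (NAc) and prefrontal cortex (PFC) receive their fibres, and the hippocampus (HIP) was taken in males only. Male VTA held 4 standard control, 4 ELS control, 6 standard defeat and 6 ELS defeat libraries. Male NAc held 4 and 6 standard control and defeat libraries, 4 and 6 of the late window and 4 and 5 of the early window. Male PFC and male HIP held 6 libraries per group, and each female region held 6 standard control, 5 standard STVS, 5 ELS control and 6 ELS STVS libraries. Each male VTA or NAc library pooled punches of 3 mice, and the other libraries came from 1 mouse each.

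Depth was 13601728 to 42746141 reads in genes in the libraries whose reads could be recovered and is unknown for male VTA, whose values are RPKM (reads scaled to gene length and to library size). Values of the other libraries are normalised reads, which do not account for gene length, so levels of different genes are compared only in male VTA. In 14 libraries, called doubted from here on, sex-linked or choroid plexus genes were out of place. Among them are standard defeat 4 of male PFC (Xist, normally a female RNA, at 1284), standard control 3 of female VTA (the Y-linked Ddx3y at 145) and 6 male HIP libraries with high Ttr, a choroid plexus gene. For each set of stress comparisons that holds such libraries, values without them are given beside those of all libraries. Male VTA was not searched for such libraries, and male NAc only by Xist and Ttr where these were listed. Markers of the labelled region were present. In VTA all 9 transcription factors of dopamine neurons and all 8 further dopamine neuron markers on the lists used were detected in both sexes, while Dbh, Pnmt and Slc6a2, which mark noradrenaline and adrenaline cells, had medians at or near 0. In NAc the striatal neuron receptor Adora2a had a median of 11490 in males and 7910 in females, against 61.4 to 93.1 in PFC, HIP and female VTA.

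The start regions of 4 of the genes are shown because the genes moved together between libraries, as described below. Each runs from 250 bases before the annotated RefSeq start to 4 bases after it on the coding strand, in build GRCm38.p6. Th lies at chr7:142892779-142899995 on the minus strand, Ddc at chr11:11814101-11898144 on the minus strand, Slc6a3 at chr13:73536128-73578672 on the plus strand and Slc18a2 at chr19:59260878-59296012 on the plus strand. The windows shown are chr7:142899992-142900245 for Th, chr19:59260628-59260881 for Slc18a2, chr11:11898141-11898394 for the outer of the 2 listed starts of Ddc, and chr13:73536497-73536750 for Slc6a3, whose listed start lies within the span of the gene. Capitals mark matches to the cAMP response element TGACGTCA, the site of the CREB family, or to the NBRE motif AAAGGTCA, the monomer site of Nr4a2 (Nurr1), searched on both strands.
Th: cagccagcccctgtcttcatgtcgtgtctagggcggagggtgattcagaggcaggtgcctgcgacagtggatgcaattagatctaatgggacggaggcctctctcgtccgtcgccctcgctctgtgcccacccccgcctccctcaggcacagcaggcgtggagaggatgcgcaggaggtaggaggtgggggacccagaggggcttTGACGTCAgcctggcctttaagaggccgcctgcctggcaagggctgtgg
Slc18a2: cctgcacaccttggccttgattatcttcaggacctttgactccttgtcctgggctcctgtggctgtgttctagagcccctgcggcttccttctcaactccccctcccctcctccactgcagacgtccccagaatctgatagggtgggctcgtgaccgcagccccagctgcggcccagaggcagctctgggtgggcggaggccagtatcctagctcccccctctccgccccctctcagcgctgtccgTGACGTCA
Ddc: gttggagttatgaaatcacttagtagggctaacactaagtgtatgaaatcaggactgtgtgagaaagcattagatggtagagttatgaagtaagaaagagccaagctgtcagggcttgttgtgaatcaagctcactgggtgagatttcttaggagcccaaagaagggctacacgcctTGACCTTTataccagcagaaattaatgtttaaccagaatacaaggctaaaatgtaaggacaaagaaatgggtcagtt
Slc6a3: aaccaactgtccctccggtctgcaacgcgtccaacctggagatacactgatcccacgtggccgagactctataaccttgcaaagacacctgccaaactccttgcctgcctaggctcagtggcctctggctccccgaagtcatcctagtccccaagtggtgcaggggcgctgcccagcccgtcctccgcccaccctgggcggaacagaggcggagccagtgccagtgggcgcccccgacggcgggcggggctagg

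The cAMP response element began 45 bases before the start in Th and 4 bases before it in Slc18a2, so that its last bases cross the start. It was found in 588 of 32851 RefSeq start windows of 300 bases (1.79%) and in none of the listed windows of Ddc, Slc6a3, Gch1 and Aldh1a1. The NBRE motif was found in Ddc, as its reverse complement TGACCTTT, and in 495 of the 32851 windows (1.51%). The 2 motifs share no position in these windows. The windows of Th, Slc18a2 and Slc6a3 were rich in G and C, at 64.3%, 64.0% and 66.0%, against 41.3% in the outer window of Ddc and a median of 52.7% over all windows. These matches are letters in a window and no measure of binding. Gch1 lies at chr14:47153895-47189413 on the minus strand and Aldh1a1 at chr19:20492583-20643463 on the plus strand. The RefSeq genes of Th, Slc6a3 and Slc18a2 overlapped no other gene, while Ddc, Gch1 and Aldh1a1 overlapped 2, 1 and 3 predicted or unnamed genes, whose reads cannot be told apart here without strand.

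All 6 genes were far higher in VTA than in any other region measured in the same table, which holds female VTA and NAc, PFC of both sexes and male HIP, so that the order of regions mixes sexes. Among standard controls (6 libraries each), Slc6a3 had a median of 26813 normalised reads in female VTA (lowest 7649, highest 46354), 48 in male HIP, 18.3 in female NAc, 5.82 in female PFC and 5.38 in male PFC. Its lowest VTA library lay above the highest library of every other region, and below VTA the ranges of neighbouring regions overlapped. Th ran from 4947 to 25578 in VTA with a median of 17970, against 276 to 443 in female NAc, 62.1 to 168 in male PFC, 53.7 to 108 in female PFC and 28.2 to 59.2 in male HIP. For Th, VTA and NAc stood apart from the region next in order, and the 2 PFC sets and HIP overlapped in turn. Ddc had medians of 11392 in VTA, 383 in female NAc, 218 in male HIP, 118 in male PFC and 101 in female PFC, with overlap between all neighbours below VTA. Slc18a2 fell in a narrow band outside VTA, with medians of 215 in female NAc, 213 in male HIP, 162 in male PFC and 149 in female PFC, against 14269 in VTA. Gch1 had a median of 1274 in VTA, and its medians outside VTA lay between 35.1 and 40.6 with all ranges overlapping. Aldh1a1 had a median of 14163 in VTA and 658 in HIP (620.3 to 1055), above the whole range of female NAc (214 to 421).

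**Figure D1:**
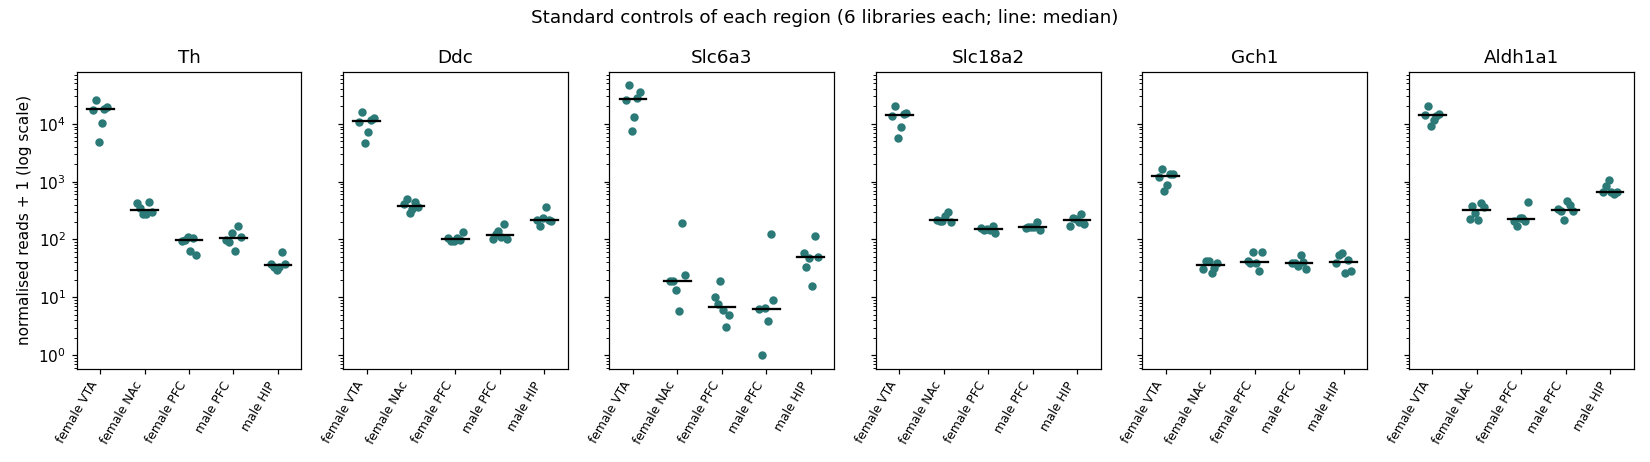
Normalised reads plus 1 of each gene (vertical axis, log scale) in the standard controls of 5 regions, 1 point per library, with a line at the median. VTA stands above every other region for all 6 genes, and Slc6a3 has single high libraries in female NAc (192) and male PFC (121).

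In limma on log2(normalised reads + 1), VTA was higher than NAc for all 6 genes, by log2 differences from 4.67 ± 0.22 (SE) for Ddc to 9.93 ± 0.81 for Slc6a3, with adjusted p-values from 1.36e-20 for Slc18a2 to 6.81e-12 for Slc6a3. At an adjusted p under 0.05 alone, 79.3% of all 14000 genes differed between these regions, so the calls themselves say little. The sizes stood out: all 6 were at least 16-fold higher, as were 0.571% of all genes. This 16-fold mark was chosen after the values were seen. Against PFC, VTA was higher by 4.71 ± 0.22 for Gch1 to 11.60 ± 0.81 for Slc6a3, again at least 16-fold for all 6, against 0.793% of all genes. Without the doubted libraries all 6 were again called in both comparisons.

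Between the regions that receive dopamine fibres the genes split. Th was 1.99 ± 0.29 higher in female NAc than in female PFC on the log2 scale (adjusted p 7.62e-07), Ddc 1.88 ± 0.22 higher (1.38e-08) and Slc18a2 0.61 ± 0.19 higher (0.00609). The groups did not overlap for these genes, but the share of all genes without overlap was not counted. Slc6a3, Gch1 and Aldh1a1 did not pass the test, at 1.67 ± 0.81, -0.33 ± 0.22 and 0.36 ± 0.22. These 3 calls of 6 compare with 68.4% of all genes. Slc6a3 is listed between 2.08 and 18.1 reads in the PFC controls and between 4.83 and 23.1 in 5 of the 6 NAc controls, so its difference rests on few reads. NAc standard control 5, at 192, was above all other female NAc libraries in 5 of 9 dopamine neuron transcription factors. The same held for 3 of 8 other dopamine neuron markers and 2 of 2 serotonin markers checked. It is not among the doubted libraries, and the reason was not tested. Male HIP was lower than male PFC in Th (-1.49 ± 0.29, adjusted p 1.02e-04) and higher in Aldh1a1 (1.15 ± 0.22, 6.79e-05), Ddc (0.87 ± 0.22, 0.00141) and Slc6a3 (2.59 ± 0.81, 0.00846). The 4 calls of 6 compare with 52.1% of all genes. The call for Slc6a3 was lost without the doubted libraries (2.63 ± 1.16, adjusted p 0.0779) and with edgeR on whole reads (adjusted p 0.276).

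Within VTA the level per gene length could be read from the RPKM values of the 20 male libraries. Slc6a3 was highest, with a median of 301 RPKM (135 to 465), followed by Aldh1a1 at 251 (158 to 359), Th at 221 (110.3 to 357), Slc18a2 at 118 (52.9 to 176), Ddc at 86.5 (39.6 to 136) and Gch1 at 14 (7 to 20.7). The order of Slc6a3 over Th, Th over Slc18a2, Slc18a2 over Ddc and Ddc over Gch1 held in 20 of 20 libraries. Aldh1a1 changed places, lying below Slc6a3 in 15 of 20 libraries and above Th in 16 of 20. The RNA of the cofactor enzyme Gch1 thus stood at a median ratio of 0.06 to that of Th. The RNA of Qdpr, which regenerates the same cofactor in many cell types, had a median of 231 RPKM. Protein was not measured.

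The 6 genes varied together from library to library, within groups as well as between them. In male VTA the library ELS control 2 was lowest in all 6 and standard defeat 1 highest in 5, with ELS control 1 highest in Th. The highest library exceeded the lowest 3.43-fold for Slc6a3 and Ddc, 3.32-fold for Slc18a2, 3.23-fold for Th, 2.95-fold for Gch1 and 2.28-fold for Aldh1a1. In female VTA standard control 3 was lowest in all 6, and standard STVS 4 or standard STVS 5 was highest. There the range was 6.67-fold for Slc6a3, 5.57-fold for Th, 3.78-fold for Slc18a2, 3.65-fold for Ddc, 2.78-fold for Gch1 and 2.62-fold for Aldh1a1. Without the 2 doubted female VTA libraries, 1 of them standard control 3, it was 3.92-fold for Slc6a3, 3.05-fold for Th and between 2.44-fold (Aldh1a1) and 2.95-fold (Slc18a2) for the others. Without a count of cells, fewer dopamine neurons in a punch and less RNA per neuron cannot be told apart, here and in the comparisons that follow. The library that was lowest in females is 1 of the 14 doubted ones, and it also held 131 reads over the 3 noradrenaline markers, where the 21 other female VTA libraries held at most 5.65.

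Across libraries of 1 sex, log2 levels of the other 5 genes were correlated with log2 Slc6a3. In males (n = 20) Pearson's r was 0.97 for Th, 0.96 for Ddc, 0.96 for Aldh1a1, 0.93 for Slc18a2 and 0.86 for Gch1, and Spearman's rho was 0.949, 0.956, 0.950, 0.949 and 0.836. In females (n = 22) r was 0.98 for Th, 0.98 for Ddc, 0.96 for Slc18a2, 0.92 for Aldh1a1 and 0.90 for Gch1, with rho 0.945, 0.972, 0.925, 0.937 and 0.826. Each Pearson r had a two-sided permutation p of 1e-05, the smallest that 100000 permutations can give, and 1e-05 after Benjamini-Hochberg adjustment over the 10 relations. Spearman's rho had a permutation p of 1e-05 as well, except Gch1 in males at 2e-05. Relative to group means r stayed between 0.869 and 0.978, and without the 2 libraries farthest from the Slc6a3 median it lay between 0.788 and 0.961.

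**Figure D2:**
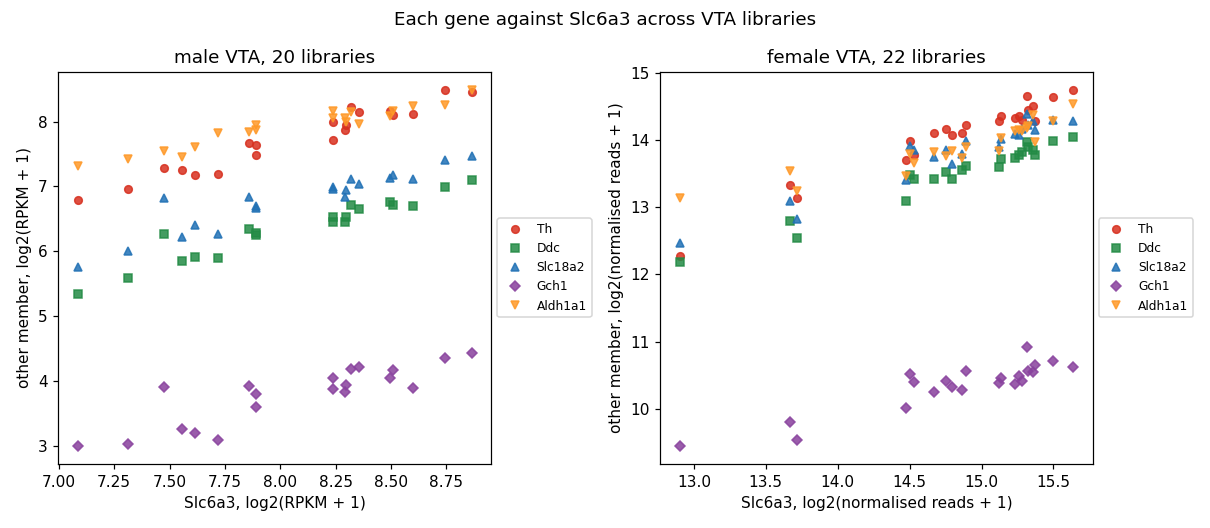
Log2 level of each other gene (vertical axis) against log2 Slc6a3 (horizontal axis), 1 point per library and gene, in 20 male (RPKM) and 22 female (normalised reads) VTA libraries. All 5 genes rise with Slc6a3, steepest for Th and least for Aldh1a1 and Gch1 in females.

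The genes did not scale alike. Per log2 unit of Slc6a3, Th changed by 0.98 ± 0.06 (SE of the slope) in males and 0.82 ± 0.04 in females, Ddc by 0.88 ± 0.06 and 0.69 ± 0.03, Slc18a2 by 0.86 ± 0.08 and 0.71 ± 0.04, Gch1 by 0.78 ± 0.11 and 0.48 ± 0.05, and Aldh1a1 by 0.61 ± 0.04 and 0.48 ± 0.05. Aldh1a1 was thus the flattest of the 5 in males, and level with Gch1 in females. The ratio of a gene to the mean of the other 5 varied less than the level of the gene, to a degree that differed between genes. Its SD over the 20 male libraries was 0.06 log2 units for Ddc, against 0.46 for the level of Ddc itself, and 0.10 against 0.45 for Slc18a2. In females the ratio of Ddc had an SD of 0.04, against 0.48 for its level, while Slc6a3 kept 0.27 of 0.68. The ratio of Aldh1a1 kept most of the spread, with 0.20 of 0.31 in males and 0.23 of 0.35 in females, and that of Gch1 kept 0.16 of 0.44 and 0.21 of 0.36. Standard control 3, the lowest female library, had the lowest ratio of Slc6a3 (1.00, against a mean of 1.70) and of Th (0.25, against 0.80), and the highest ratio of Gch1 and Aldh1a1.

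The genes whose pattern over all VTA libraries was most like the mean of the standardised 6 were Slc10a4 (r = 0.995 over 20 libraries), Chrnb3 (0.989), Cadps2 (0.987), Chrna6 (0.982) and Ret (0.973) in males. In females they were Cadps2 (0.996 over 22 libraries), Slc10a4 (0.992), Chrna6 (0.988), Fam167a (0.985) and Chrnb3 (0.983). Slc10a4 is a vesicle protein of monoamine and cholinergic neurons, Chrna6 and Chrnb3 are nicotinic receptor subunits of dopamine neurons, and Ret is the GDNF receptor kinase. Of the 50 genes of highest r in each sex, 29 were shared. The last of these 50 still had an r of 0.879 in males (Atp6v1g1) and 0.926 in females (C130021I20Rik). A high correlation was thus not particular to the 6 genes. These values describe the libraries, which share their dissection.

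No stress comparison called any of the 6 genes. Over 49 comparisons in 7 region and sex sets, 281 tests of a member gave 0 calls at an adjusted p under 0.05, with a lowest adjusted p of 0.319, and the background was 0% in each comparison, since limma called 0 of all genes tested. At an unadjusted p under 0.05, 11 of the 281 tests (3.91%) passed. The quasi-likelihood test of edgeR on recovered reads, which could not be run for male VTA, called 0 members too. At an unadjusted p under 0.05 it had 19 of 221 member values, and its count over all genes is not given here. The comparisons within a region share their control libraries and are not independent.

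In male VTA the levels overlapped between all groups. Slc6a3 was 387, 231, 209.6 and 158 RPKM in the standard controls and 428, 135, 236 and 363 in the ELS controls. It ran from 177 to 465 (median 316) after defeat in standard-reared mice and from 187 to 327 (median 301) after defeat in ELS mice. The ELS controls held both the lowest and nearly the highest libraries. Th was 278, 202, 146 and 124 in the standard controls and 357, 110.3, 178 and 275 in the ELS controls, with medians of 266 (155 to 349) and 221 (143 to 282) after defeat. Gch1 was 13.8, 14.2, 7.56 and 7.19 in the standard controls, and ran from 13 to 20.7 (median 14.9) after defeat. Of the standard controls, 2 lay below the whole defeat range of Gch1 and 2 within it.

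Defeat after standard rearing went with higher mean values of all 6 genes. Gch1 had the smallest p, at a log2 difference of 0.57 ± 0.26 (unadjusted p 0.0407, adjusted p 0.691, all 6 defeat libraries above the control mean). Slc18a2 and Ddc were 0.47 ± 0.28 above control, Th 0.46 ± 0.31, Slc6a3 0.35 ± 0.31 and Aldh1a1 0.21 ± 0.20, with adjusted p-values from 0.691 to 0.750. The count of 1 member of 6 at an unadjusted p under 0.05 compares with 6.56% of all genes tested. After ELS, defeat left all 6 within 0.04 of 0, from -0.04 ± 0.26 for Gch1 to -0.01 ± 0.31 for Slc6a3. The test of the difference between these 2 effects, the interaction, passed for none of the 6, with values from -0.61 ± 0.37 for Gch1 to -0.22 ± 0.28 for Aldh1a1 and adjusted p-values from 0.817 to 0.864. ELS alone gave 0.07 to 0.30, ELS among defeated mice -0.31 to -0.15, and ELS with defeat against unstressed controls 0.05 to 0.26. In these 5 comparisons 0 of 6 passed at an unadjusted p under 0.05, against 4.57% of all genes for defeat after ELS, 5.46% for the interaction, 2.03% for ELS alone, 5.77% for ELS among defeated mice and 2.52% for ELS with defeat. The log2 ratio to the other 5 genes was 1.11 ± 0.07 (SD, n = 4) for Th in standard controls and 1.16 ± 0.16 (n = 6) after defeat. For Gch1 it was -3.69 ± 0.24 and -3.51 ± 0.19. It differed most for Aldh1a1, at 1.52 ± 0.24 in standard controls and 1.26 ± 0.12 after defeat, and was not tested.

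Markers of other cell types had these values in the same comparison of male VTA. All 3 serotonin markers were above 0, with Tph2 at 1.41 ± 0.60 (unadjusted p 0.0291) and Slc6a4 at 1.22 ± 0.52 (0.0296), and their sum ran from 5.45 to 70.2 RPKM in standard controls and from 32.8 to 138 after defeat. All 5 markers of neighbouring nuclei were below 0, led by Barhl1 at -1.03 ± 0.22 (unadjusted p 1.85e-04) and Barhl2 at -1.21 ± 0.33, and their sum ran from 61.1 to 115 in controls and from 53.4 to 77 after defeat. All 5 red blood cell genes were above 0, with a median of 1.16. At an unadjusted p under 0.05 there were 2 of 3 serotonin markers and 5 of 5 red blood cell genes higher, where 300 of 14586 genes were higher, and 3 of 5 markers of neighbouring nuclei lower, where 657 were. None of these passed the adjusted test, and their part in the values of the 6 genes was not tested.

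The further genes of the pathway were taken as lists. Of 8 other dopamine neuron markers all 8 were above 0 after defeat in standard-reared males (median 0.33, 0 at an unadjusted p under 0.05), against a median of -0.02 over all genes. All 8 were also among the 50 genes whose pattern was most like that of the 6 in these same libraries. Their signs therefore follow those of the 6 and are no separate support. Of 9 dopamine neuron transcription factors 6 were above 0 (median 0.07), with En2 at 0.49 ± 0.23 and Lmx1a at -0.54 ± 0.25. Of 12 genes of cofactor synthesis and dopamine breakdown 10 were above 0, but with a median of 0.04, and 2 were higher at an unadjusted p under 0.05, Aldh3a2 (0.09 ± 0.04) and Pcbd2 (0.15 ± 0.07). Of all genes tested 300 of 14586 were higher and 657 lower at that p. No list member was called.

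**Figure D3:**
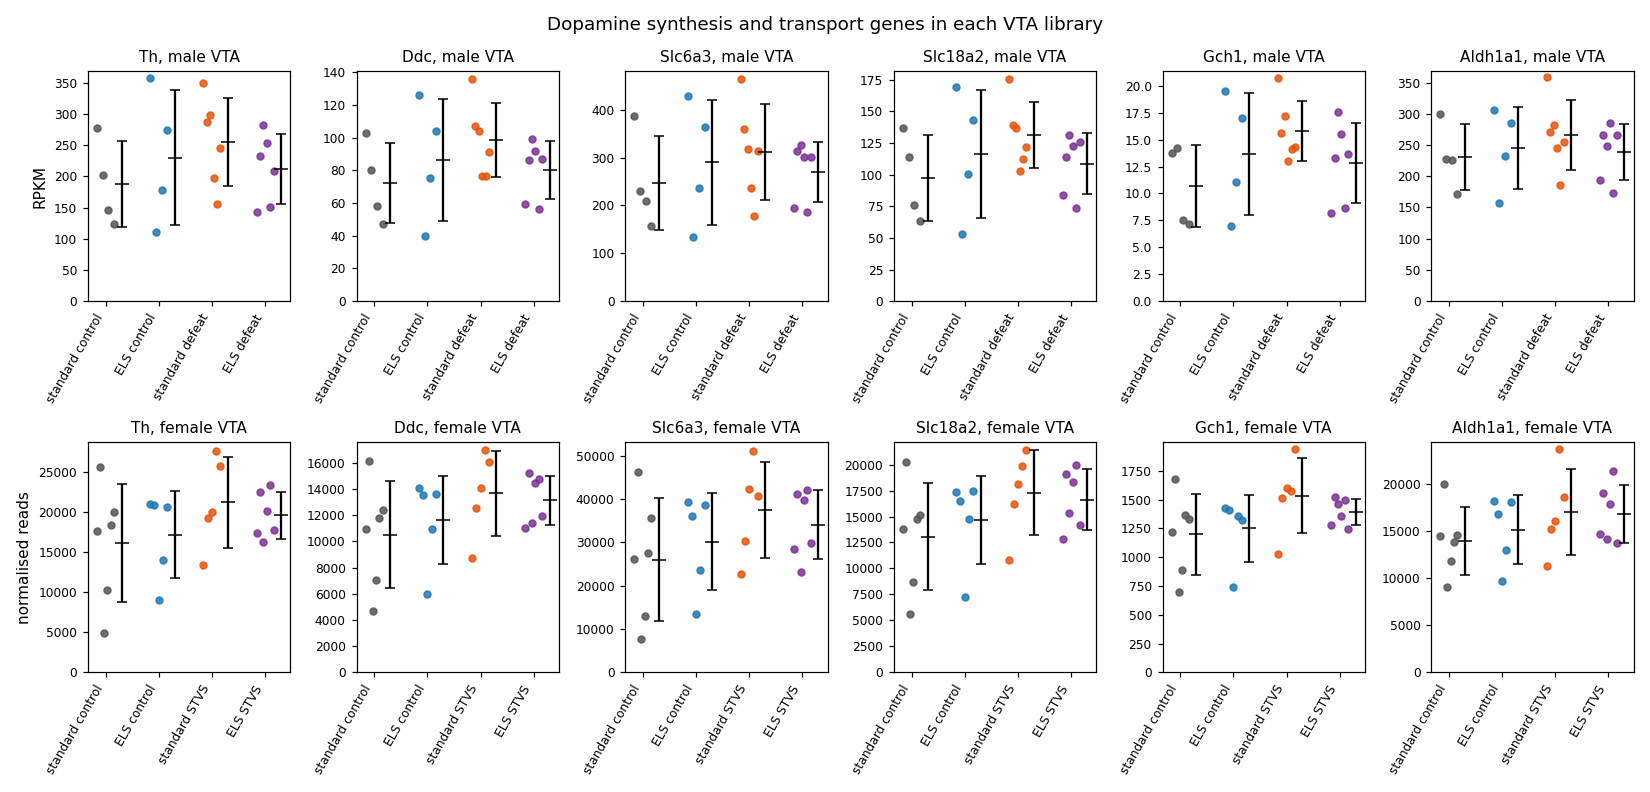
Level of each gene (columns) in every VTA library by group, in RPKM in males (top) and normalised reads in females (bottom). Points are libraries and bars beside them the mean ± SD; the groups overlap for all 6 genes in both sexes.

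In female VTA, Slc6a3 ran from 7649 to 46354 (median 26813) in standard controls and was 22733, 30377, 42390, 50993 and 40722 after STVS. It was 39333, 35993, 13436, 23675 and 38560 in ELS controls and ran from 23227 to 41981 (median 34830) after ELS and STVS. Th ran from 4947 to 25578 (median 17970) in standard controls and was 13324, 19218, 19966, 27541 and 25735 after STVS. The STVS libraries lay within or just above the control range. STVS after standard rearing gave log2 differences of 0.70 ± 0.39 for Slc6a3, 0.53 ± 0.33 for Th, 0.48 ± 0.29 for Slc18a2, 0.45 ± 0.28 for Ddc, 0.38 ± 0.21 for Gch1 and 0.28 ± 0.21 for Aldh1a1, all with an adjusted p of 0.827. None of 6 passed at an unadjusted p under 0.05, against 4.44% of all genes. Leaving out the 2 doubted libraries (standard control 3 and standard STVS 3) brought these values down to between 0.17 ± 0.22 (Aldh1a1) and 0.34 ± 0.36 (Slc6a3).

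After ELS, STVS gave 0.17 to 0.25 for the 6 genes, ELS alone 0.08 to 0.34 and ELS among STVS mice -0.12 to 0.01, with 0 of 6 at an unadjusted p under 0.05 against 1.34%, 4.22% and 4.2% of all genes. ELS with STVS against unstressed controls gave 0.27 to 0.59, with adjusted p-values from 0.474 to 0.525. In that last comparison none of the 6 passed at an unadjusted p under 0.05, against 11.6% of all genes. The interaction lay between -0.46 ± 0.55 for Slc6a3 and -0.11 ± 0.29 for Aldh1a1, with adjusted p-values of 1 and 0 of 6 at an unadjusted p under 0.05 against 2.37% of all genes. These values changed without the 2 doubted libraries. ELS alone then lay between -0.11 ± 0.26 (Th) and 0.03 ± 0.34 (Slc6a3), with 1 of 6 genes above 0 in place of 6. ELS with STVS lay between 0.13 ± 0.18 (Gch1) and 0.28 ± 0.33 (Slc6a3), with Th at 0.14 ± 0.25. The interaction lay between -0.09 ± 0.49 (Slc6a3) and 0.02 ± 0.37 (Th). STVS after ELS remained at 0.17 to 0.25, and no member passed at an unadjusted p under 0.05 in any of the 6 comparisons.

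Of the further dopamine genes, all 8 markers were above 0 after STVS in standard-reared females (median 0.52), as were 8 of 9 transcription factors (median 0.29), with Pitx3 at 0.72 ± 0.34 (unadjusted p 0.0481). Of all genes 4.44% passed at that p in either direction. The serotonin markers stood at a median of 0.07 in this comparison. All 8 dopamine neuron markers, Pitx3 and En1 were among the 50 genes whose pattern was most like that of the genes described here. That pattern came from these same female VTA libraries. The signs of these markers, Pitx3 and En1 therefore follow it and are no separate support. Without the doubted libraries the 8 markers had a median of 0.27, the transcription factors 0.19 (8 of 9 above 0) and the serotonin markers 0.27.

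**Figure D4:**
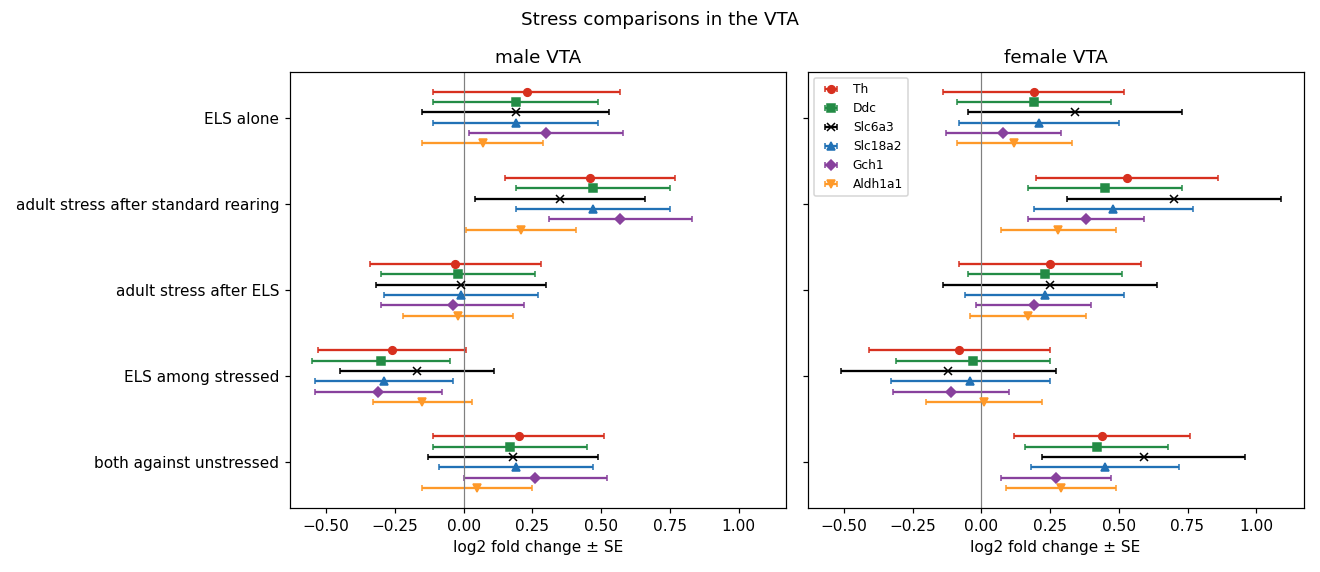
Log2 differences ± SE (horizontal axis) of the 6 genes in 5 comparisons of male and female VTA. Values after adult stress in standard-reared mice lie above 0 for all 6 genes in both sexes, from 0.21 to 0.57 in males and 0.28 to 0.70 in females (0.17 to 0.34 without the doubted libraries, not plotted), and no value passed the adjusted test.

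Of the 65 member tests in male NAc, that of Slc18a2 in defeat after late ELS had the smallest p. Slc18a2 was 196, 239.9, 269 and 196 normalised reads in the late ELS controls. It ran from 145 to 190.3 (median 163) in the late ELS defeat libraries. The 2 groups did not overlap, but the share of all genes without overlap was not counted. The log2 difference was -0.45 ± 0.14 (unadjusted p 0.00279, adjusted p 0.496), the only one of 5 members at an unadjusted p under 0.05, against 8.41% of all genes. Leaving out single libraries moved it between -0.51 and -0.36. Defeat after standard rearing left Slc18a2 at 198 ± 20.3 (SD, n = 6) against 199.9 ± 27.7 (n = 4), and the interaction with late ELS was -0.44 ± 0.20 (unadjusted p 0.0309, adjusted p 0.999, 1 of 5 against 3.93% of all genes). Against standard defeat the late ELS defeat libraries stood at -0.27 ± 0.12 (unadjusted p 0.0345, adjusted p 0.981, 1 of 5 against 4.62%). In the early window Slc18a2 stood at 199 ± 36.2 (n = 5) after defeat against 199 ± 61.2 (n = 4), and the late against early difference among defeated mice was -0.26 ± 0.13 (unadjusted p 0.0516, adjusted p 0.654).

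Ddc in male NAc had lower values in late ELS controls than in standard controls, by -0.29 ± 0.13 (unadjusted p 0.0326, adjusted p 0.690), at 329 ± 28.9 against 409.8 ± 88.1 (n = 4 each). For this comparison 1 of 5 members at an unadjusted p under 0.05 stands against 6.77% of all genes. After late ELS and defeat Ddc stood at -0.26 ± 0.12 against unstressed controls (unadjusted p 0.038, adjusted p 0.858, 1 of 5 against 5.71%). In the other 8 comparisons of male NAc 0 of 5 members passed at an unadjusted p under 0.05. There the share of all genes was 3.39% for defeat after standard rearing, 7.71% for defeat after early ELS, 3.46% for early ELS alone, 6.01% for early ELS among defeated mice, 3.99% for early ELS with defeat, 6.03% for the early interaction, and 7.64% and 7.61% for late against early ELS in undefeated and defeated mice. Slc6a3 was low in all male NAc libraries, between 3.58 and 26.2 reads.

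With all female NAc libraries no member passed at an unadjusted p under 0.05 in any of 6 comparisons, where the share of all genes was 11.2% for ELS alone, 6.16% for STVS after standard rearing, 2.2% for STVS after ELS, 13.3% for ELS among STVS mice, 3.24% for ELS with STVS and 7.94% for the interaction. Th was between 258 and 472 and Ddc between 262 and 582 reads over all 22 libraries. Gch1 and Slc6a3 did not pass the filter there and were tested without it. Without the 2 doubted female NAc libraries Ddc in ELS alone was 0.33 ± 0.15 (unadjusted p 0.0427, adjusted p 0.457), 1 of the 4 members tested in that fit against 10.8% of all genes, and the other 5 comparisons had 0 of 4.

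In female PFC Ddc after STVS in ELS mice stood at 0.29 ± 0.13 (unadjusted p 0.0322, adjusted p 0.999), with 119 ± 21 reads (n = 6) against 96.5 ± 8.73 (n = 5), 1 of 6 members against 3.25% of all genes. Slc6a3 lay at 0 to 18.1 reads in female PFC, too few for its log2 difference of -1.26 ± 0.40 between ELS with STVS and unstressed controls to be read as a size (adjusted p 0.721, 1 of 6 against 5.11% of all genes). The other 4 comparisons of female PFC had 0 of 6, against 3.29% for ELS alone, 5.04% for STVS after standard rearing, 10.6% for ELS among STVS mice and 7.91% for the interaction. Without the doubted female PFC library Ddc after STVS in ELS mice was again at 0.29 ± 0.12 (unadjusted p 0.0215, adjusted p 0.999), 1 of 5 members tested against 3.33% of all genes, and the other 5 comparisons had 0 of 5.

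Male PFC held 1 library far from the rest. In standard defeat 4, Slc6a3 was at 3853 normalised reads, where the other 23 libraries had a median of 4.83 and a highest value of 121. Th was at 2086 (highest other 168), Slc18a2 at 1770 (203), Ddc at 1391 (183), Aldh1a1 at 1911 (642) and Gch1 at 167 (52.2). The excess over the median of the other libraries, as a share of the female VTA median, was 9.50% for Gch1, 10.18% for Th, 10.21% for Ddc, 10.24% for Slc18a2, 10.93% for Aldh1a1 and 11.67% for Slc6a3. The same share was a median of 10.55% over 9 dopamine neuron transcription factors, with En1, Foxa1, Foxa2 and Lmx1a at a median of 0 in the other libraries, and 10.69% over 8 other dopamine neuron markers. For Xist it was 8.10%. In male HIP, standard defeat 5 was highest in 5 of the 6 genes, with Slc6a3 at 609.7 (highest other 115) and Th at 257 (68.9), and a median excess of 1.57% of the female VTA level, while its Xist, at 14.2, lay within the range of the other libraries.

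**Figure D5:**
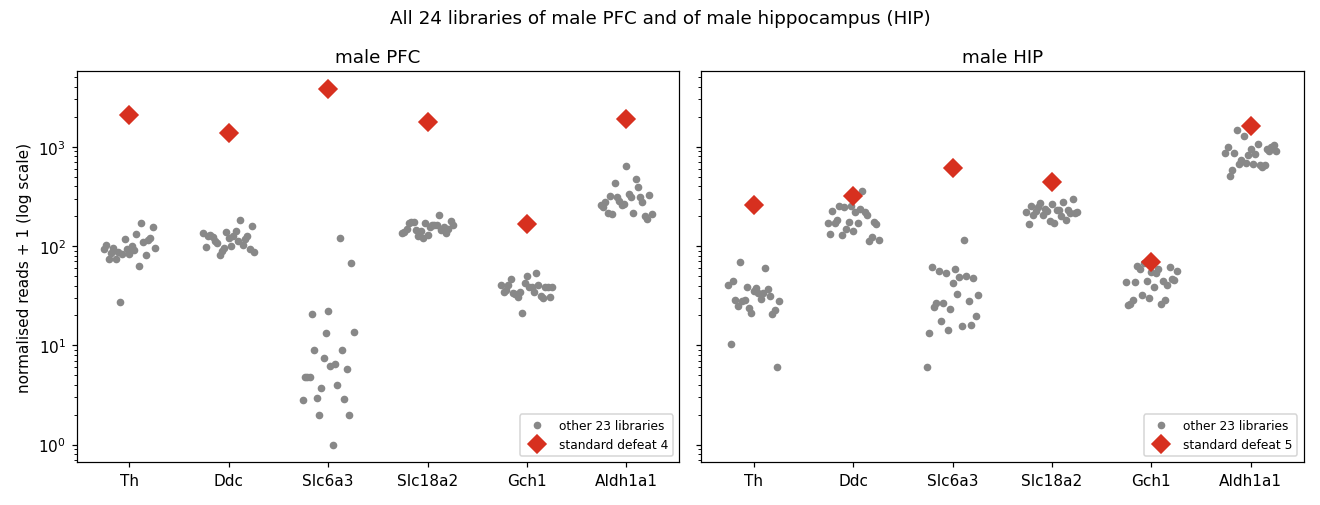
Normalised reads plus 1 (vertical axis, log scale) of the 6 genes in the 24 male PFC and 24 male HIP libraries. The diamond is standard defeat 4 in PFC, above all other PFC libraries for all 6 genes, and standard defeat 5 in HIP, above all other HIP libraries for 5 of 6.

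The male PFC values moved with this library. With it, defeat after standard rearing stood above 0 for all 6 genes, from 0.01 ± 0.41 for Aldh1a1 to 1.56 ± 1.40 for Slc6a3, none at an unadjusted p under 0.05 against 3.35% of all genes. Without it alone, Th and Slc6a3 stood at 0.07 ± 0.28 and 0.07 ± 0.99, and the other 4 genes were below 0, from -0.49 ± 0.22 for Aldh1a1 to -0.09 ± 0.10 for Slc18a2. Without all 3 doubted PFC libraries all 6 were below 0, from -0.36 ± 0.24 for Aldh1a1 to -0.03 ± 0.19 for Gch1. Th in ELS among defeated mice was -1.26 ± 0.56 (unadjusted p 0.0346, adjusted p 0.558, 1 of 6 members against 8.44% of all genes) and -0.56 without standard defeat 4. With all libraries the remaining 4 comparisons of male PFC had 0 of 6, against 2.22% of all genes for ELS alone, 16.7% for defeat after ELS, 8.62% for ELS with defeat and 5.94% for the interaction.

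Without the 3 doubted PFC libraries more members passed at an unadjusted p under 0.05, none after adjustment. ELS with defeat against unstressed controls had 3 of 6, against 8.74% of all genes, with Th at -0.69 ± 0.29 (unadjusted p 0.0245), Ddc at -0.38 ± 0.17 (0.0335) and Slc18a2 at -0.28 ± 0.11 (0.0215). Aldh1a1 was at 0.46 ± 0.20 in defeat after ELS (unadjusted p 0.0374, 1 of 6 against 16.8%) and at 0.82 ± 0.31 in the interaction (0.0169, 1 of 6 against 6.29%). ELS among defeated mice had 2 of 6, against 11.8%, with Aldh1a1 at 0.55 ± 0.21 (unadjusted p 0.0182) and Th at -0.56 ± 0.27 (0.0499). Adjusted p-values of these members ran from 0.276 to 0.779. ELS alone had 0 of 6, against 2.86%.

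In male HIP 2 members passed at an unadjusted p under 0.05 after defeat in standard-reared mice, against 14.4% of all genes. Ddc ran from 112 to 321 (median 145) after defeat and from 170.1 to 357 (median 218) in controls, a difference of -0.54 ± 0.24 (unadjusted p 0.0328, adjusted p 0.322). Aldh1a1 ran from 903 to 1632 (median 967) and from 620.3 to 1055 (median 658), a difference of 0.51 ± 0.22 (unadjusted p 0.0296, adjusted p 0.319). The groups overlapped for both genes. Without the doubted libraries, 3 of which were standard controls and none standard defeat, the values were -0.40 for Ddc and 0.34 for Aldh1a1. Without standard defeat 5 Ddc was at -0.75 and Aldh1a1 at 0.38. Th lay under the filter in HIP. The other 5 comparisons of male HIP had 0 of 6, against 6.46% for ELS alone, 7.88% for defeat after ELS, 2.89% for ELS among defeated mice, 3.41% for ELS with defeat and 11.8% for the interaction. Without the doubted libraries Gch1 in defeat after ELS was at 0.56 ± 0.24 (unadjusted p 0.0355, adjusted p 0.709), 1 of the 5 members tested in that fit against 6.52% of all genes. The other 5 comparisons then had 0 of 5, defeat after standard rearing included, where 2.89% of all genes passed.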

How the data were processed

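The 6 genes and the lists of further genes were chosen with earlier results of these data known. RNA was measured by poly-A sequencing with an unstranded kit in 163 libraries, and 16 chromatin libraries are not analysed here. Groups came from the labels. For 10 female NAc libraries, whose adult condition label repeats the sex, the title was used. The authors deposited RPKM values for male VTA. For the other sets they deposited a signal of normalised reads, whole reads divided by a factor for each library, by a method that the labels and headers do not state. All positive values were whole multiples of the value of 1 read within 0.001, so depth and whole reads could be recovered. The submitters' processing notes name TopHat2, Bowtie2 2.2.0, SAMtools 0.1.19, HTSeq and builds mm9 and mm10 for male VTA, and HISAT, HTSeq and mm10 for the rest.

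The groups of each region and sex shared 1 limma fit (version 3.58.1 in R 4.3.3, moderated variances with a trend and the robust option). Values entered as log2(value + 1), the model held the groups and no covariate, and the genes tested were the 14000 genes of highest mean, or 14586 genes with a mean of at least 0.5 RPKM in male VTA. Members under this filter take values from a fit without it. P-values were adjusted by Benjamini-Hochberg over all genes, and a call needs an adjusted p under 0.05. Fold changes on this scale understate those of low genes. Standard controls of the joint table were fitted together for the regions. Alternatives were no filter, a pseudocount of 0.1 RPKM or 5 reads, quantile normalisation, a replicate block, leaving out each library, the 14 doubted libraries or the 10 with a wrong label, and edgeR 4.0.16 (quasi-likelihood, TMM) on whole reads. Doubted libraries met a rule on Xist, Ddx3y and Ttr, which was not applied to male VTA. All 6 genes were tested in every comparison, except Th in male NAc, and for some comparisons only counts of members are given. From each list at most 3 genes of smallest p are named in a comparison, besides the 5 genes of most similar pattern. The fits were run on simulated counts with set fold changes. That run does not measure the power to find changes in these 6 genes. The closest of 328 replicate pairs differed by a chi-square of 2.96 per gene, so no pair agreed within sampling noise. Where nothing says that samples came from separate animals, p-values measure only the spread between these samples. Promoter sequences and gene positions are from RefSeq, GRCm38.p6, matched by symbol for all 6 genes.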

Additional observations from a re-analysis of the deposited data

Results flagged for a closer look

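The values of each gene were checked in each group of 4 to 10 libraries. In 16 of 174 combinations of gene and group, 1 library lay farther from the rest than Dixon's 95% limit allows on the log2(value + 1) scale. Chance gives this in about 1 of 20 independent checks. These checks are not independent, since the same libraries recur across genes that moved together, so the count is not to be set against that rate. In male PFC, standard defeat 4 was high in Th (2086, next library 154), Ddc (1391), Slc18a2 (1770), Gch1 (167) and Aldh1a1 (1911). The same library carried the highest Slc6a3, 3853, without passing this limit on that scale. Also in male PFC, standard control 5 was high in Slc18a2 (203, next 163) and ELS defeat 2 was low in Th (26.1, next 81.5). In male HIP, standard defeat 5 was high in Slc6a3 (609.7, next 46.9) and Aldh1a1 (1632, next 1034), and standard control 5 was high in Th (59.2, next 36.6).

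In female VTA, ELS control 3 was low in Ddc (5985, next 10977), Slc18a2 (7257, next 14753) and Gch1 (738, next 1326). In female PFC, ELS control 5 was low in Th (46.5, next 85.7), ELS STVS 3 was listed at 0 for Slc6a3 (next 2.1) and standard control 6 was high in Aldh1a1 (439, next 235).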

How the results depend on the processing

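No member was called in any of 879 combinations of stress comparison and alternative. How many of all genes were called in these is not given here, so the 0 has no background beside it. The lowest adjusted p was 0.442 without the filter, 0.317 with the other pseudocount, 0.284 after quantile normalisation, 0.279 with edgeR, 0.276 without the doubted libraries, 0.752 without the 10 libraries with a wrong label and 0.203 on leaving out single libraries. At an unadjusted p under 0.05 there were 10 of 156 values without the doubted libraries, 19 of 221 with edgeR and 11 of 281 with all libraries. These counts cover different tests, since the 156 leave out male NAc, male VTA and members under the filter. The 221 leave out male VTA and members under the filter. Of the 11, 5 were in male NAc and 1 in male VTA. The sign of the log2 difference changed for 30 of 156 values without the doubted libraries, 17 of 221 with edgeR, 11 of 24 without the 10 libraries and 9 of 257 after quantile normalisation. All 6 genes were called higher in VTA under every alternative run. Single calls between other regions changed: Slc6a3 in NAc against PFC was called with the replicate block (1.67, adjusted p 0.0442) and without NAc standard control 4 (2.06) or PFC standard control 3 (1.95), Slc18a2 in HIP against PFC without the doubted libraries (0.55, adjusted p 0.0209), and Aldh1a1 in NAc against PFC without female PFC standard control 6 (0.54). The call for Slc6a3 in HIP against PFC was lost with edgeR (1.18) and without the doubted libraries (2.63). The cause was not tested.

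Same-numbered libraries of different groups had a median correlation of their deviations from 0.02 in male VTA to 0.17 in female VTA. Between libraries of other numbers it was 0.00 in male VTA and -0.04 in female VTA. In female VTA 18 of 31 same-numbered pairs lay over 0.1. Whether replicate numbers pair the samples was therefore left undecided. Among the standard controls of the region fit the median was 0.02 over 60 same-numbered pairs, against -0.00 for other numbers. Standard STVS 3 met the rule on low Xist in female VTA (6152), NAc (101) and PFC (166). Whether a number stands for the same mouse across regions was not tested. The main region fit took all libraries as independent. With the replicate block, 0 of 192 stress values were called (lowest adjusted p 0.232), and Gch1 after defeat in standard-reared males was 0.64. Male NAc columns are numbered across all groups and carry no replicate number within a group, so no block was fitted there. Depth is unknown in male VTA, and Slc6a3 in PFC and NAc rests on few reads.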
